A study of Homo sapiens with 14 samples.

Results

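The miR-23/27/24 clusters are a pair of short genomic blocks, each encoding a miR-23, a miR-27 and a miR-24 hairpin. They were followed here through 6 mature miRNA entries, hsa-miR-27a-3p, hsa-miR-27b-3p, hsa-miR-24-3p, hsa-miR-23a-3p, hsa-miR-23b-3p and hsa-miR-27a-5p, taken by name from the 2848 entries of the deposited count table. The libraries came from PANC-1, an established line from a human pancreatic ductal carcinoma grown in medium with fetal bovine serum. The cells received proanthocyanidins of grape (PA), which are plant polyphenols built from flavan-3-ol units, at 20 µg/ml for 3, 12 or 24 h, or DMSO for 0, 3, 12 or 24 h. This made 7 groups of 2 libraries, lettered A and B. The design text speaks of a biological replicate, but separate cultures for A and B are not stated in the labels, so the p-values measure the spread between these libraries, which may in part be technical. PANC-1 is a single line, and the effect of DMSO itself cannot be read, because all groups are labelled with DMSO or PA.

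Each cluster is transcribed as a polycistron, a single primary transcript from which several hairpins are cut, and each hairpin can give a 5p and a 3p arm. The arm loaded into an Argonaute protein pairs with messenger RNAs mainly through its seed, bases 2 to 8, so miRNAs with the same seed share many of their predicted targets. miR-27 is known for repressing PPARG in adipocyte differentiation, and miR-27a is often described as growth-promoting in carcinoma cells. miR-23a and miR-23b are known to repress glutaminase, whose loss of repression accompanies MYC activity, and miR-24 is known to repress E2F2 and other cell cycle genes.

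The mature sequences are shown because the members fall into seed families that cross the clusters and differ by few bases, which bears on how reads can be assigned. They come from RefSeq (GRCh38.p14), run 5′ to 3′, and have the seed in capitals.
hsa-miR-27a-3p: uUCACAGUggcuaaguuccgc
hsa-miR-27b-3p: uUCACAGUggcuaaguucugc
hsa-miR-23a-3p: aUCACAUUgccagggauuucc
hsa-miR-23b-3p: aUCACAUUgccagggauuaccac
hsa-miR-23c: aUCACAUUgccagugauuaccc
hsa-miR-24-3p: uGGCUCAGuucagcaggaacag
hsa-miR-27a-5p: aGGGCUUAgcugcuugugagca
hsa-miR-3074-5p: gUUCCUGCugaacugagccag
miR-27a-3p and miR-27b-3p share a seed and differ at a single base, C19U, counted from the 5′ end of miR-27a-3p. Between miR-23a-3p and miR-23b-3p, which likewise have a seed in common, the difference is U19A, and miR-23b-3p carries 2 further bases at its 3′ end. miR-23c, from a locus on the X chromosome outside both clusters, has the same seed and differs from miR-23b-3p by G14U and A22C. The rule for reads that could belong to more than 1 of these entries was not given in the sources used here. The last sequence, miR-3074-5p, belongs to a hairpin that lies opposite MIR24-1 on the other strand.

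The cluster on chromosome 19, chr19:13836287-13836659 on the minus strand (GRCh38), holds MIR23A, MIR27A and MIR24-2 within 373 nt, and in GENCODE v29 each hairpin overlaps an exon of the long non-coding gene AC020916.1. MIR27A alone gives 2 of the 6 members, and in its hairpin, shown with both mature arms in capitals, miR-27a-5p comes first and miR-27a-3p second.
MIR27A: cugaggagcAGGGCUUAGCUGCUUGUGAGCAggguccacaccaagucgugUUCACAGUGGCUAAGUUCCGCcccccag
The cluster on chromosome 9, chr9:95085208-95086088 on the plus strand, spreads MIR23B, MIR27B and MIR24-1 over 881 nt within the protein-coding gene C9orf3. MIR23B and MIR27B lie in its introns, whereas MIR24-1 overlaps 1 of its exons. miR-24-3p has the same sequence from MIR24-1 (chr9:95086064-95086085) and from MIR24-2 (chr19:13836289-13836310), so its counts cannot be divided between the clusters.

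**Figure D1:**
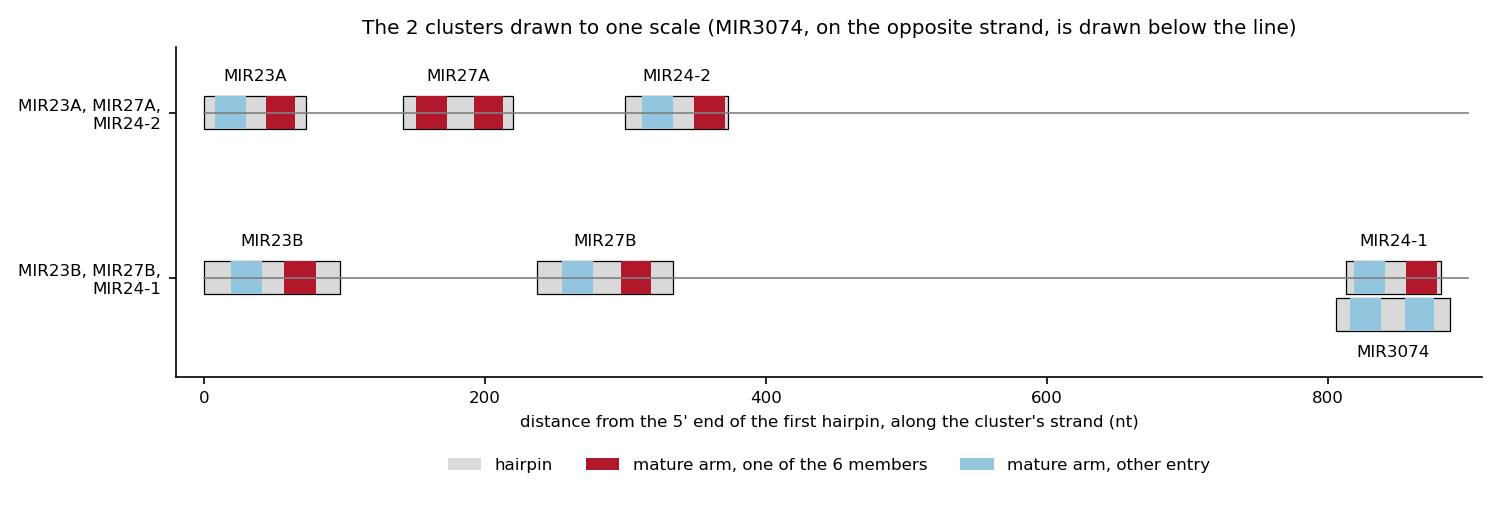
Map of the clusters on chromosome 19 (top) and chromosome 9 (bottom), drawn 5′ to 3′ along each cluster's strand, with distance from the first hairpin in nt on the horizontal axis. Grey boxes are hairpins, red boxes the mature arms of the 6 members and blue boxes other mature arms. The chromosome 19 cluster is the shorter, and MIR3074 overlaps MIR24-1 on the opposite strand.

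Total counts per library ran from 1032391 in DMSO 12 h B to 3111014 in PA 3 h B and had a median of 2076388. Levels are given as CPM, counts scaled by the library total times a TMM factor. All mature members are 21 to 23 nt long, so CPM values of different members are compared without a length correction. The 6 members together took 10.3% to 18.7% of all counts, lowest in DMSO 12 h B and highest in PA 24 h A. The smallest count of any member in any library was 333, so all 6 passed the filter on low counts, which left 810 of the 2848 entries.

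The members were ranked in the same order in 14 of 14 libraries, with miR-27a-3p highest. miR-27a-3p had 37415 CPM in its lowest library, a median of 70492 CPM and 104997 CPM in its highest, and ranked between 3 and 6 among all entries of a library. miR-27b-3p had 25813, 37875 and 53457 CPM as its lowest, median and highest values. miR-24-3p followed with 20506, 23382 and 29211 CPM. It was the steadiest member, its highest library standing only 1.42 times above its lowest, against 2.81 times for miR-27a-3p. miR-23a-3p had 10689, 17891 and 23118 CPM, and miR-23b-3p had 1668, 2485 and 2792 CPM. miR-27a-5p, the minor arm of the MIR27A hairpin, had 274, 346 and 543 CPM. The ranges of neighbours in this order overlapped down to miR-23a-3p and were apart only between miR-23a-3p and miR-23b-3p and between miR-23b-3p and miR-27a-5p. Within a library, miR-23a-3p had 6.06 to 9.24 times the count of miR-23b-3p, whereas miR-27a-3p had 1.39 to 1.98 times the count of miR-27b-3p. For both seed families the chromosome 19 entry thus had more counts than the chromosome 9 entry. The factor was larger for miR-23 than for miR-27. The part of read assignment between these nearly identical entries was not tested.

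**Figure D2:**
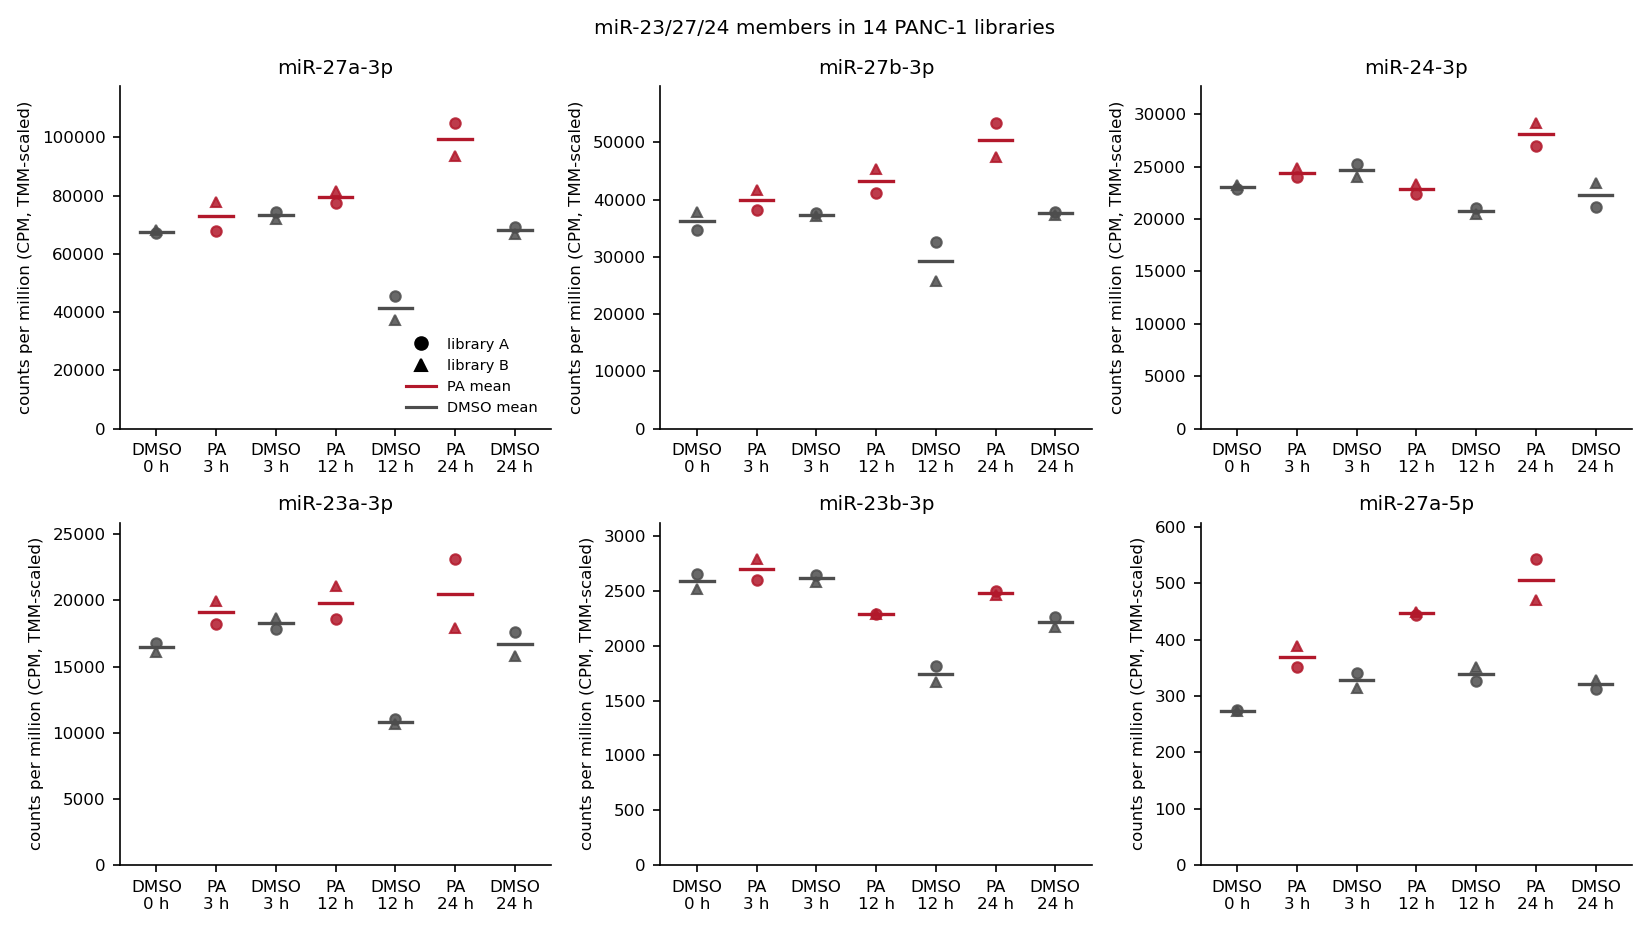
CPM (TMM-scaled, linear axes from 0) of each member in the 14 libraries, by treatment and time, with circles for library A, triangles for library B and a line at the mean of 2 libraries. PA is drawn in red and DMSO in grey. In 5 panels the DMSO 12 h libraries are the lowest of the 14, and miR-27a-5p is the exception.

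At 3 h no member differed between PA and DMSO beyond the spread between libraries. miR-27a-3p had 67943 and 77650 CPM in PA, against 74427 and 71888 CPM in DMSO, so its PA libraries lay on both sides of the DMSO libraries. miR-27b-3p had 38131 and 41735 CPM in PA, against 37601 and 37105 CPM in DMSO, and miR-27a-5p had 351 and 388 CPM in PA, against 341 and 314 CPM in DMSO. In these 2 members the groups did not overlap and PA was higher, while in the other 4 they overlapped. Among all 810 entries, the PA libraries lay above the DMSO libraries in 16.3% and below them in 16.0% at this time. edgeR's quasi-likelihood test called 0 of the 6 members, with 0 at an unadjusted p under 0.05 and 0 in DESeq2. It called 0.247% of all entries. The log2 fold changes of the members lay between -0.01 and 0.17, each with an SE of 0.13 to 0.15, and had a median of 0.05, beside -0.01 over all entries.

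At 12 h the 3p arms of miR-27 and miR-23a were higher in PA than in DMSO. miR-27a-3p had 77317 and 81601 CPM in PA, against 45386 and 37415 CPM in DMSO. Both PA libraries were above all 8 DMSO libraries of the series, and both DMSO 12 h libraries were the lowest of all 14. Its log2 fold change was 0.94 ± 0.14 (SE, n = 2 each) with an edgeR adjusted p of 0.000471. miR-23a-3p, from the same transcript, had 18561 and 21069 CPM in PA, against 11008 and 10689 CPM in DMSO. Its groups did not overlap, and the DMSO values were again the lowest of the 14. The log2 fold change was 0.87 ± 0.15 (SE), with an edgeR adjusted p of 0.0018. miR-27b-3p, from the cluster on chromosome 9, had 41165 and 45296 CPM in PA, against 32592 and 25813 CPM in DMSO. The groups were apart, but the DMSO libraries differed more from each other than the PA libraries did. The log2 fold change was 0.57 ± 0.15 (SE), with an edgeR adjusted p of 0.0225. This call was lost without DMSO 12 h B (0.42, adjusted p = 0.158) and without PA 12 h B (0.56, adjusted p = 0.0919).

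The other 3 members were higher in both PA libraries at 12 h without passing the test. miR-23b-3p had 2289 and 2295 CPM in PA, against 1817 and 1668 CPM in DMSO (log2 fold change 0.40 ± 0.14 SE, edgeR adjusted p = 0.0802). miR-27a-5p had 444 and 450 CPM in PA, against 326 and 351 CPM in DMSO (0.40 ± 0.16 SE, edgeR adjusted p = 0.11). miR-24-3p had 22367 and 23338 CPM in PA, against 21021 and 20506 CPM in DMSO (0.14 ± 0.13 SE, edgeR adjusted p = 0.532). Its difference was close to its standard error, although both of its source hairpins sit on transcripts that also carry called members. In all, 3 of 6 members were called higher in PA than in DMSO, beside 11.1% of all entries called in either direction. The members' median log2 fold change was 0.48, beside -0.06 over all entries. The groups of all 6 members were apart with PA higher, beside 25.3% of all entries apart with PA higher and 26.8% apart with PA lower.

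**Figure D3:**
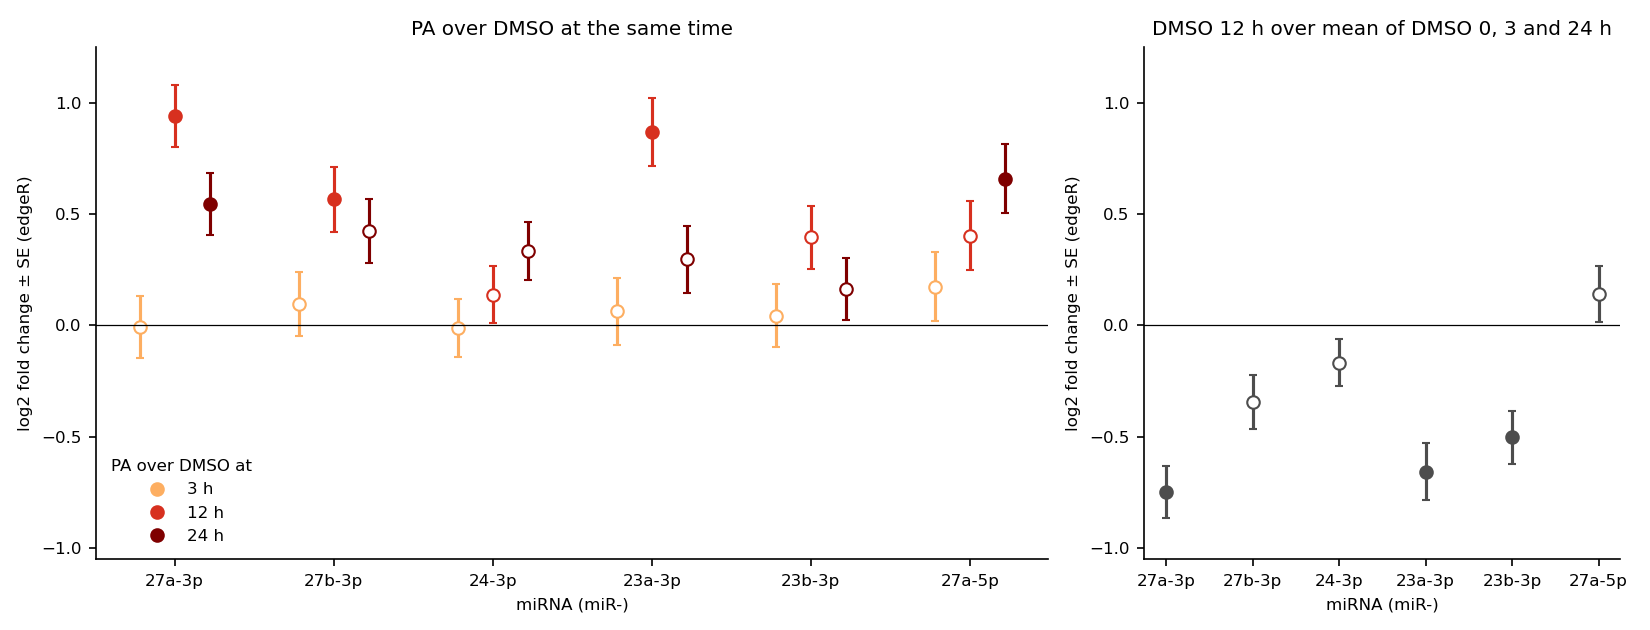
Left, edgeR log2 fold changes of PA over DMSO for the 6 members at 3, 12 and 24 h. Right, those of DMSO 12 h over the mean of DMSO 0, 3 and 24 h. Bars are SE and filled points passed at an adjusted p under 0.05. The 12 h values of miR-27a-3p and miR-23a-3p (0.94 and 0.87) stand opposite DMSO values of -0.75 and -0.66.

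The DMSO libraries of 12 h stood apart from the other controls in 3 of the 6 members by the edgeR test. This comparison was chosen because earlier results of these data showed DMSO 12 h apart. Its p-values therefore describe a difference already seen in the same libraries. miR-27a-3p averaged 41400 ± 5636 CPM in DMSO at 12 h, and 67628 ± 549, 73157 ± 1795 and 68015 ± 1530 CPM in DMSO at 0, 3 and 24 h (SD, n = 2 each). The groups did not overlap. Against the average of DMSO at 0, 3 and 24 h, miR-27a-3p fell by 0.75 ± 0.12 (SE) on the log2 scale, with an edgeR adjusted p of 0.000804. miR-23a-3p averaged 10848 ± 225 CPM in DMSO at 12 h, and 16445, 18274 and 16710 CPM in DMSO at 0, 3 and 24 h, a log2 difference of -0.66 ± 0.13 (SE, edgeR adjusted p = 0.0029). miR-23b-3p averaged 1743 ± 106 CPM in DMSO at 12 h, and 2589, 2618 and 2221 CPM in DMSO at 0, 3 and 24 h, a log2 difference of -0.50 ± 0.12 (SE, edgeR adjusted p = 0.0079). The call for miR-23b-3p was lost without DMSO 12 h B (-0.44, adjusted p = 0.0769). In this comparison 3 of 6 members were called, all lower, beside 16.5% of all entries. miR-27b-3p had a log2 difference of -0.34 (edgeR adjusted p = 0.0633), miR-24-3p of -0.17 and miR-27a-5p of 0.14. Of the 6 members miR-27a-5p was the only one with a positive value.

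This comparison and that of PA with DMSO at 12 h share the DMSO 12 h libraries, so their values are not independent. When PA at 12 h was set against the mean of DMSO at 3 and 24 h, which mixes treatment with time, 0 of 6 members passed in edgeR, beside 0.247% of all entries. An unadjusted p under 0.05 was found in 1 member, beside 10.4% of all entries, and DESeq2 called 0. The log2 difference was 0.17 ± 0.12 (SE) for miR-27a-3p, 0.18 ± 0.13 (SE) for miR-23a-3p and 0.21 ± 0.12 (SE) for miR-27b-3p. For miR-27a-5p it was 0.46 ± 0.13 (SE), the value at an unadjusted p under 0.05, with an edgeR adjusted p of 0.238. From these groups, an effect of PA at 12 h and a shift of the DMSO 12 h libraries cannot be told apart.

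Across time in DMSO, 0 of 6 members were called at 3 h against 0 h in edgeR, beside 0% of all entries, with 0 at an unadjusted p under 0.05 and 0 in DESeq2. At 12 h against 0 h, 3 of 6 were called lower, beside 12.7% of all entries, namely miR-27a-3p with a log2 difference of -0.71 (edgeR adjusted p = 0.00369), then miR-23a-3p with -0.60 (adjusted p = 0.0169) and miR-23b-3p with -0.57 (adjusted p = 0.0155). Without DMSO 0 h B none of the 3 passed, with adjusted p-values of 0.0523 for miR-27a-3p, 0.128 for miR-23a-3p and 0.107 for miR-23b-3p. Without DMSO 0 h A or without DMSO 12 h B miR-27a-3p alone passed. At 24 h against 0 h, 0 of 6 were called in edgeR, beside 3.58% of all entries, with 0 at an unadjusted p under 0.05 and 0 in DESeq2. The DMSO values at 24 h were thus near those at 0 h for miR-27a-3p (log2 difference 0.01 ± 0.14 SE) and for miR-23a-3p (0.02 ± 0.15 SE).

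At 24 h both arms of the MIR27A hairpin were higher in PA than in DMSO. miR-27a-3p had 104997 and 93527 CPM in PA, against 69097 and 66933 CPM in DMSO. The PA values were the 2 highest of the series, and the log2 fold change was 0.55 ± 0.14 (SE) with an edgeR adjusted p of 0.0246. miR-27a-5p had 543 and 470 CPM in PA, against 313 and 329 CPM in DMSO. These PA values were also the 2 highest of the series, and the log2 fold change was 0.66 ± 0.15 (SE) with an edgeR adjusted p of 0.0161. In DMSO, miR-27a-3p averaged 68015 CPM at 24 h, near 67628 and 73157 CPM at 0 and 3 h, and 41400 CPM at 12 h. The DMSO means of miR-27a-5p were 274, 328, 338 and 321 CPM at 0, 3, 12 and 24 h. The DMSO 12 h libraries enter the 24 h comparison only through the shared filter, scaling and spread. In a fit without the DMSO 12 h libraries the edgeR adjusted p was 0.00967 for miR-27a-3p and 0.00812 for miR-27a-5p. In that fit miR-27b-3p passed as well (0.43, adjusted p = 0.0495).

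Both 24 h calls lay near the threshold and depended on scaling and on single libraries. With library totals in place of TMM factors, the median of all entries moved by -0.18 on the log2 scale at 24 h, and the values of miR-27a-3p and miR-27a-5p became 0.36 (adjusted p = 0.0749) and 0.47 (adjusted p = 0.0558). Both calls were also lost without PA 24 h A, without DMSO 24 h A and without DMSO 24 h B, with edgeR adjusted p-values of 0.0667, 0.122 and 0.163 for miR-27a-3p and 0.0724, 0.17 and 0.124 for miR-27a-5p. The call for miR-27a-3p was lost as well without DMSO 0 h B (0.0708) and without DMSO 3 h B (0.055).

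For the other 4 members the PA libraries at 24 h lay above the DMSO libraries without passing the test. miR-27b-3p had 53457 and 47458 CPM in PA, against 37872 and 37382 CPM in DMSO (log2 fold change 0.42 ± 0.15 SE, edgeR adjusted p = 0.0976). miR-24-3p had 26977 and 29211 CPM in PA, against 21113 and 23426 CPM in DMSO (0.34 ± 0.13 SE, edgeR adjusted p = 0.146). miR-23a-3p had 23118 and 17915 CPM in PA, against 17643 and 15778 CPM in DMSO (0.30 ± 0.15 SE, edgeR adjusted p = 0.276). Its PA libraries differed by more than the DMSO libraries, and the lower of them lay just above the higher DMSO library. miR-23b-3p had 2501 and 2469 CPM in PA, against 2267 and 2175 CPM in DMSO (0.16 ± 0.14 SE, edgeR adjusted p = 0.55), and with library totals its value was -0.02. In all, 2 of 6 members were called higher in PA than in DMSO at 24 h, beside 6.67% of all entries called in either direction. The members' median log2 fold change was 0.38, beside -0.01 over all entries. The groups of all 6 members were apart with PA higher, beside 25.6% of all entries apart with PA higher and 26.5% apart with PA lower.

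Summed over a seed family, the miR-27 3p arms averaged 122690 ± 5951 CPM in PA and 70603 ± 10429 CPM in DMSO at 12 h. At 24 h they averaged 149720 ± 12353 CPM in PA and 105642 ± 1877 CPM in DMSO (SD, n = 2 each). The miR-23 3p arms averaged 22107 ± 1778 CPM in PA and 12591 ± 331 CPM in DMSO at 12 h. At 24 h they averaged 23001 ± 3702 CPM in PA and 18931 ± 1384 CPM in DMSO. The sum for miR-27 was thus made up mainly of miR-27a-3p, and that for miR-23 mainly of miR-23a-3p.

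Whether the difference between PA and DMSO changed with time was tested with interaction terms. The terms that involve 12 h include the DMSO 12 h libraries, so a shift of those libraries enters them too. Between 12 h and 3 h it differed for miR-27a-3p, by 0.95 ± 0.20 (SE) on the log2 scale with an edgeR adjusted p of 0.027. This was 1 of 6 members, beside 1.23% of all entries. The value for miR-23a-3p was 0.81 ± 0.21 (SE, edgeR adjusted p = 0.0829), and those of the other 4 lay between 0.15 and 0.47. The call for miR-27a-3p was lost when any of 6 libraries was left out, namely library A of DMSO 3 h, PA 3 h and PA 12 h, or library B of DMSO 0 h, DMSO 3 h and DMSO 12 h, with adjusted p-values of 0.067 to 0.134. Between 24 h and 3 h, 0 of 6 members were called in edgeR, beside 1.23% of all entries. An unadjusted p under 0.05 was found in 2 members, beside 12.5% of all entries, and DESeq2 called 0. The largest value was that of miR-27a-3p, 0.55 ± 0.20 (SE, edgeR adjusted p = 0.225). Between 24 h and 12 h, 0 of 6 were called in edgeR, beside 8.64% of all entries. An unadjusted p under 0.05 was found in 1 member, beside 25.6% of all entries, and DESeq2 called 0. The value was -0.57 ± 0.21 (SE) for miR-23a-3p and -0.40 ± 0.19 (SE) for miR-27a-3p. The test for miR-23a-3p gave an adjusted p of 0.113, and of 0.0266 without PA 24 h A. The joint test over the 3 times called 1 of 6, miR-27a-3p (edgeR adjusted p = 0.0193), beside 5.93% of all entries. That call was lost without the same 6 libraries, with adjusted p-values of 0.0508 to 0.0946.

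Averaged over the 3 times in the 12 matched libraries, 0 of 6 members were called in edgeR, beside 0% of all entries, with 4 at an unadjusted p under 0.05, beside 118 of 808 entries (14.6%). DESeq2 called 3 members, which were miR-27b-3p and both arms of MIR27A, and 2.5% of the 559 entries with an adjusted p. The edgeR log2 fold change was 0.49 ± 0.13 (SE) for miR-27a-3p, 0.41 ± 0.12 (SE) for miR-27a-5p and 0.36 ± 0.10 (SE) for miR-27b-3p, each with an adjusted p of 0.154. miR-23a-3p had 0.41 ± 0.13 (SE, edgeR adjusted p = 0.207). miR-23b-3p had 0.20 and miR-24-3p had 0.15.

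Within PA, 0 of 6 members were called in edgeR at 12 h against 3 h, beside 0% of all entries, with 0 at an unadjusted p under 0.05 and 0 in DESeq2. At 24 h against 3 h, 0 of 6 were called in edgeR, beside 3.95% of all entries. An unadjusted p under 0.05 was found in 3 members, beside 18.6% of all entries, and DESeq2 called 0. miR-27a-3p had a log2 difference of 0.45 ± 0.14 (SE, edgeR adjusted p = 0.088, and 0.0496 without DMSO 12 h A) and miR-27a-5p one of 0.46 ± 0.15 (SE, edgeR adjusted p = 0.117). At 24 h against 12 h, 0 of 6 were called in edgeR, beside 2.22% of all entries. An unadjusted p under 0.05 was found in 2 members, beside 10.9% of all entries, and DESeq2 called 0. The group means of miR-27a-5p in PA were 370, 447 and 506 CPM at 3, 12 and 24 h, whereas those in DMSO were 274, 328, 338 and 321 CPM at 0, 3, 12 and 24 h. miR-27a-5p and miR-27b-3p were the members whose PA libraries lay above the DMSO libraries at all 3 times. That was 2 of 6 members, beside 13 of all 810 entries (1.6%), while 11 entries (1.36%) and 0 members lay below at all 3 times.

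Ratios between members within a library need no scaling between libraries. For 6 ratios, the mean over times of PA minus DMSO on the log2 scale was tested by permuting treatment within each time, an exact two-sided test whose smallest possible p is 0.00926. The ratio of miR-27b-3p to miR-23b-3p, both from the chromosome 9 transcript, was 14.6 and 14.9 in PA, against 14.2 and 14.3 in DMSO at 3 h. It was 18.0 and 19.7 in PA, against 17.9 and 15.5 in DMSO at 12 h. At 24 h it was 21.4 and 19.2 in PA, against 16.7 and 17.2 in DMSO. The PA libraries lay above the DMSO libraries at all 3 times, by a mean log2 difference of 0.16. The exact permutation p was 0.00926, the smallest the test can give, and 0.0556 after Benjamini-Hochberg adjustment over the 6 ratios. A single ratio at the smallest p cannot pass after this adjustment, so its place beyond the threshold was fixed by the design.

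None of the other 5 ratios had an exact permutation p under 0.05 before adjustment. The ratio of miR-27a-3p to miR-23a-3p, from the chromosome 19 transcript, had a mean log2 difference of 0.09 (exact permutation p = 0.25, adjusted 0.3). That of the paralogous pair miR-27a-3p to miR-27b-3p was 0.13 (exact permutation p = 0.148, adjusted 0.222). It was made up of -0.11 at 3 h, 0.37 at 12 h and 0.12 at 24 h, with the groups apart each time. For the paralogous pair miR-23a-3p to miR-23b-3p it was 0.20 (exact permutation p = 0.102, adjusted 0.204). This mean was made up of 0.02 at 3 h, 0.47 at 12 h and 0.12 at 24 h. The ratio of miR-27a-3p to miR-24-3p had a mean log2 difference of 0.34 (exact permutation p = 0.0648, adjusted 0.194), made up of 0.00 at 3 h, 0.81 at 12 h and 0.21 at 24 h. Its group means were 1.99 in DMSO at 12 h and 2.93 to 3.06 in the other DMSO groups. The ratio of the 3p to the 5p arm of MIR27A had a mean log2 difference of 0.08 (exact permutation p = 0.574, adjusted 0.574). It averaged 197, 178 and 196 in PA at 3, 12 and 24 h, and 223, 123 and 212 in DMSO at the same times. PA lay below DMSO at 3 and 24 h and above it at 12 h, and the groups were apart each time.

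**Figure D4:**
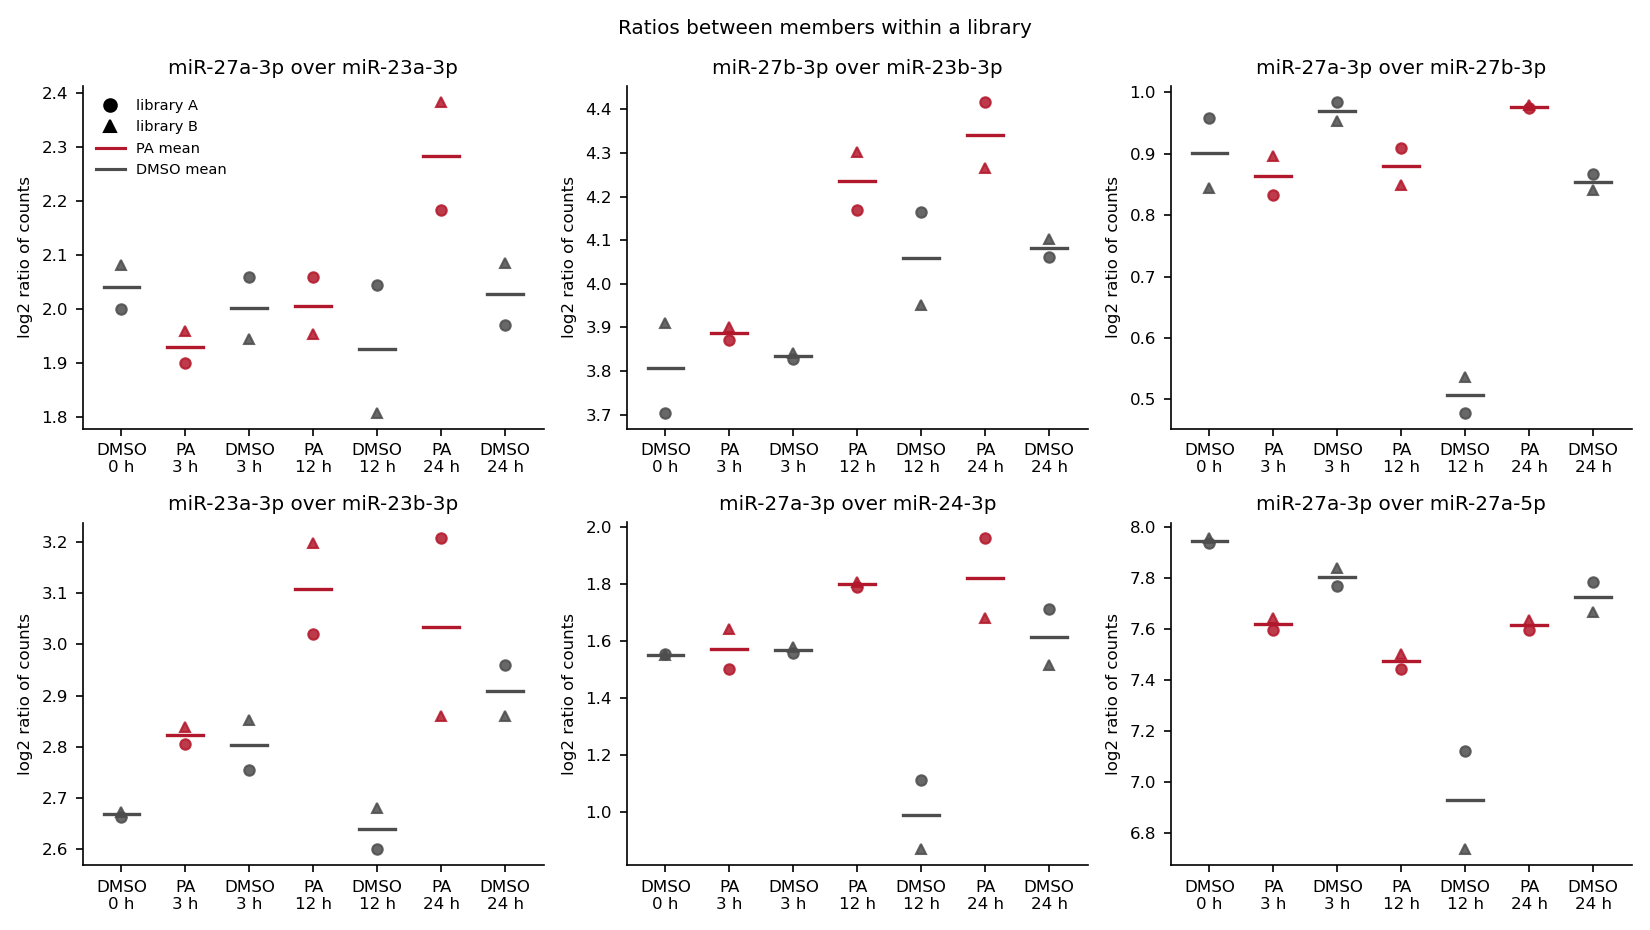
Log2 ratios of counts of 2 members within a library, by treatment and time, with circles for library A, triangles for library B and a line at the group mean. PA is red and DMSO grey, and the vertical axes do not start at 0. For miR-27a-3p over miR-27b-3p, over miR-24-3p and over miR-27a-5p the DMSO 12 h libraries stand lowest, and for miR-27b-3p over miR-23b-3p PA lies above DMSO at each time.

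Of 13 related entries, 12 were tested: the other arms of the same hairpins, the arms of MIR3074, of MIR181C and MIR181D, which lie 38040 and 38216 nt from MIR23A on the opposite strand, miR-23c and miR-128-3p, whose seed is that of miR-27 shifted by 1 base. At 3 h, 0 of 12 were called in edgeR, beside 0.247% of all entries. There were 0 at an unadjusted p under 0.05 and 0 in DESeq2. At 24 h 0 were called in edgeR, beside 6.67% of all entries. At that time 2 had an unadjusted p under 0.05, beside 20.9% of all entries, and DESeq2 called 1, beside 7.53%. At 12 h edgeR called 2 of 12, miR-23c and miR-128-3p, beside 11.1% of all entries. miR-23c had 36.3 and 30.3 CPM in PA, against 13.1 and 10.0 CPM in DMSO at 12 h, from counts of 72 and 76 in PA, against 23 and 11 in DMSO. Its log2 fold change was 1.50 ± 0.31 (SE, edgeR adjusted p = 0.00629, and 0.0508 without DMSO 12 h B). The DMSO 12 h libraries were again the lowest of the 14, with a log2 difference of -1.29 ± 0.27 (SE, edgeR adjusted p = 0.00399) from the other DMSO groups. At 24 h miR-23c had 29.3 and 21.0 CPM in PA, against 27.1 and 24.7 CPM in DMSO, a log2 fold change of -0.02 ± 0.28 (SE). With so few counts beside the far more abundant and nearly identical miR-23a-3p, how much of this entry came from reads of miR-23a-3p or miR-23b-3p was not tested.

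miR-128-3p moved the other way, with 516 and 526 CPM in PA, against 776 and 672 CPM in DMSO at 12 h. Its groups were apart, and the log2 fold change was -0.48 ± 0.15 (SE, edgeR adjusted p = 0.0498). That p lay at the threshold, and the call was lost without any of 13 of the 14 libraries, PA 24 h A being the exception. The minor arms of the other hairpins were scarce, with means over the 14 libraries of 55.7 CPM for miR-27b-5p, 39.0 for miR-24-2-5p, 36.3 for miR-24-1-5p, 26.5 for miR-23b-5p and 9.28 for miR-23a-5p. miR-27a-5p, at 369 CPM, was thus the most abundant minor arm of the clusters. Of these scarce arms miR-24-1-5p had the largest fold change at 12 h, 0.81 ± 0.27 (SE, edgeR adjusted p = 0.0638).

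**Figure D5:**
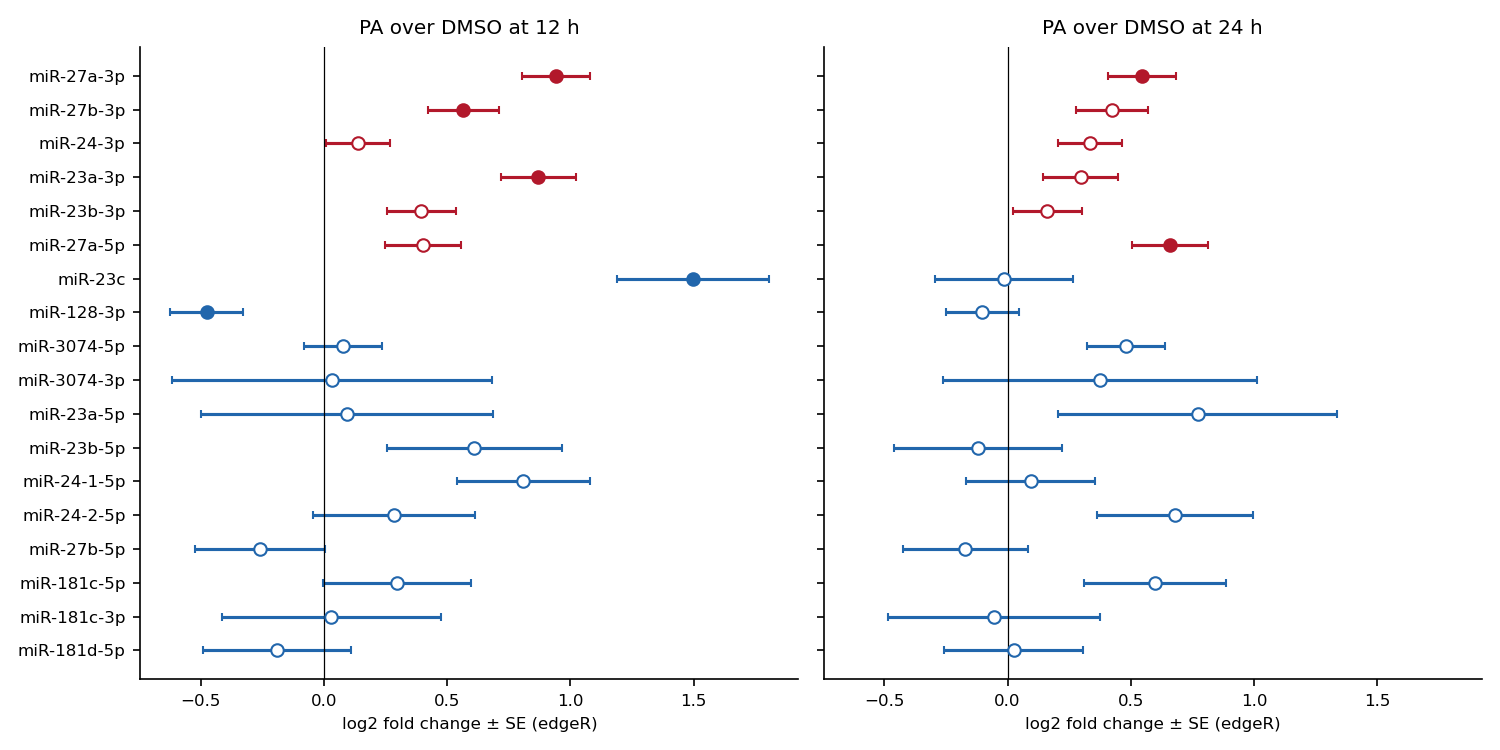
edgeR log2 fold changes (horizontal, bars are SE) of PA over DMSO at 12 h (left) and 24 h (right) for the 6 members in red and 12 related entries in blue, with filled points for an adjusted p under 0.05. At 12 h miR-23c and miR-128-3p passed in opposite directions (1.50 and -0.48), and at 24 h no related entry passed.

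miR-3074-5p, which overlaps miR-24-3p by 20 nt on the opposite strand of MIR24-1, had counts near those of miR-24-3p. Summed over the libraries there were 673622 counts of miR-24-3p and 423081 of miR-3074-5p. The ratio between them lay between 1.39 and 1.78, with a median of 1.61. A further 3 pairs of entries that overlap on opposite strands had identical counts in 14 of 14 libraries, namely miR-103a-3p and miR-103b, miR-374b-5p and miR-374c-3p, and miR-423-5p and miR-3184-3p. Strand therefore did not separate those pairs. Another 6 opposite-strand pairs differed in count in each of the 14 libraries. Among them were miR-423-3p and miR-3184-5p, with 56399 and 5434 counts in all libraries together. The other arms of MIR24-1 and MIR3074, miR-24-1-5p and miR-3074-3p, were also among them, with 1056 and 201 counts. Only pairs above a set count and overlap were searched, and not on every chromosome. Whether the counting kept reads of miR-24-3p and miR-3074-5p apart was not tested. At 24 h the log2 fold change of miR-3074-5p was 0.48 ± 0.16 (SE) with an edgeR adjusted p of 0.0866, beside 0.34 for miR-24-3p.

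Across the 14 libraries, which share their groups and scaling, log2 CPM of miR-27a-3p followed that of miR-27b-3p (Pearson r 0.95) and of miR-23a-3p (r 0.94) most closely among the members. It followed its own hairpin's other arm, miR-27a-5p, less closely (r 0.55), and miR-23b-3p and miR-27a-5p had an r of 0.03. Among 676 other human-named entries, the closest to miR-27a-3p were miR-96-5p (r 0.92), miR-33a-5p (0.91) and miR-9-3p (0.91), and those closest to miR-23a-3p were miR-96-5p (0.95), miR-9-5p (0.92) and miR-561-5p (0.92). For miR-27b-3p they were miR-500a-3p (0.93), miR-183-5p (0.92) and miR-188-3p (0.90). For miR-24-3p they were miR-1271-5p (0.85), miR-532-5p (0.85) and miR-3074-5p (0.82). For miR-23b-3p they were miR-30e-5p (0.93), miR-1307-5p (0.90) and miR-7157-5p (0.88), and for miR-27a-5p they were miR-10a-5p (0.87), miR-409-5p (0.86) and miR-7704 (0.83). These are descriptions of 14 libraries and carry no test.

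Each list of miRNAs that mark other cells summed to less than any of the 5 3p members, whereas endothelial miR-126 exceeded miR-27a-5p and the red blood cell entries summed to values near it. Endothelial miR-126 (2 entries) summed to 1029 to 1435 CPM in PA and 806 to 1439 CPM in DMSO, of which DMSO 12 h had 806 to 948. The 4 red blood cell entries summed to 296 to 554 CPM in PA and 315 to 591 CPM in DMSO, with 540 to 591 at 12 h. The 5 fibroblast and smooth muscle entries summed to 27.7 to 56.0 CPM in PA and 13.1 to 306 CPM in DMSO, with 13.1 to 15.5 at 12 h. The 6 epithelial entries of the miR-200 family and miR-205 were present, at 53.4 to 85.8 CPM in PA and 50.0 to 81.2 CPM in DMSO, with 50.0 to 55.7 at 12 h. White blood cell, muscle, liver, neuron, acinar and islet lists each summed to at most 8.35 CPM. For miR-126 both DMSO 12 h sums lay below those of the other 12 libraries. In the fibroblast and smooth muscle list, and likewise in the epithelial list, 1 other library lay between the DMSO 12 h sums. The red blood cell sums of DMSO 12 h were at the high end of the range and overlapped those of PA. No test was run on these lists. The part of these miRNAs in the member values was not tested. In bulk libraries, fewer cells and less of a miRNA per cell cannot be told apart.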

How the data were processed

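The authors deposited read counts per mature miRNA entry and library, as whole numbers, and TPM values. Each TPM value equals the count divided by its library total and scaled, within 0.00642%, so the deposited TPM carries no length correction. The tools named per the submitters' processing notes are edgeR, Bowtie and bcl2fastq, with the build GRCh38. Their versions and roles and the multi-mapping and strand rules are not given in the sources used here. Each of the 28 value columns matched a library.

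Counts were fitted with edgeR 4.0.16 (R 4.3.3): TMM factors, filterByExpr (minimum count 10, minimum total 15), 1 mean per group over all 14 libraries, a robust quasi-likelihood F test and Benjamini-Hochberg adjustment over 810 entries (808 in the mean over times) at 0.05. The biological coefficient of variation common to all entries was 0.203. Alternatives were DESeq2 1.42.0, limma 3.58.1 on log2(TPM + 1) and log2(TPM + 0.5), other scalings and filters, the letter as a block and each library left out. Intervals cover the spread between libraries. Replicates A and B differed beyond sampling noise in each group (chi-square per degree of freedom 13.0 to 78.0). The 12 h pairs were the least alike by this measure, with 78.0 for DMSO and 59.6 for PA. No other pair exceeded 36.3. Because the main fit took its spread from all 14 libraries together, its SE and p-values at 12 h may understate the spread there. Deviations of same-lettered libraries correlated above 0.1 in 1 of 21 pairs of groups. Scarce entries add count noise to these correlations, so they cannot show that the letters carry no pairing.

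All 6 members are named with their values, as are related entries by hairpin, overlap, neighbourhood or seed, and for likeness the 3 entries with the highest Pearson r. Members, lists and comparisons were chosen with earlier results of these data known.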

Additional observations from a re-analysis of the deposited data

Results flagged for a closer look

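The difference between PA and DMSO in miR-27a-3p changed between 3 and 12 h by a test of the change itself. The interaction between treatment and time gave a log2 difference of 0.95 ± 0.20 (SE, edgeR adjusted p = 0.027) for 12 h minus 3 h. This call did not hold in every fit with 1 library left out, and without DMSO 12 h B the log2 difference was 0.79. Both PA libraries lay above both DMSO libraries at 12 h, and the groups overlapped at 3 h. At 12 h PA had 77317 and 81601 CPM, against 45386 and 37415 CPM in DMSO, and at 3 h PA had 67943 and 77650 CPM, against 74427 and 71888 CPM in DMSO. PA at 12 h against PA at 3 h gave a log2 difference of 0.13, and DMSO at 12 h against the other DMSO groups one of -0.75. A change in the effect of PA and a shift of the DMSO 12 h libraries therefore cannot be told apart here.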

How the results depend on the processing

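At 12 h, 3 members passed, and fitting only the groups compared left 1. Both limma fits left 2, without miR-27b-3p (adjusted p = 0.101 at a pseudocount of 1 and 0.107 at 0.5), and leaving out 1 library gave 2 to 3. At 24 h, 2 passed, and 0 did with library totals, without the count filter, with only the groups compared, or with limma on log2 TPM at pseudocounts of 1 and 0.5; leaving out 1 library gave 0 to 2. For the PA effect at 12 h minus 3 h, where 1 passed, DESeq2 called 2 and leaving out 1 library gave 0 to 2. For 24 h minus 12 h, library totals called 1 and leaving out 1 library gave 0 to 1. For DMSO 12 h against DMSO 0 h leaving out 1 library gave 0 to 3, and for PA 24 h against PA 3 h 0 to 1. The joint test over times called 2 with library totals and 2 without the filter, and 0 to 2 with 1 library left out. The mean PA effect called 1 without the filter and 3 in DESeq2. The replicate block on the letters A and B left 3 calls at 12 h and 2 at 24 h. Of 1848 repeats for single members, 1786 kept their side of the threshold, 68 of them with a turned sign in a value that passed in neither fit, while 45 lost a call, 17 gained one and 0 reversed a call. The cause of lost calls was not tested beyond the smaller number of libraries or the added entries. For miR-27a-3p at 12 h the highest adjusted p over all alternatives, leave-outs among them, lay just under 0.05. miR-27a-3p passed at 12 h in 10 of 10 alternatives other than leaving out 1 library, all with DMSO 12 h as the reference. Against the mean of DMSO at 3 and 24 h its log2 difference was 0.17 (edgeR adjusted p = 0.695). There it passed in 0 of 4 such alternatives. The ratio test without the 12 h libraries has too few arrangements to reach 0.05.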
